A study of Mus musculus with 7 samples.

Results

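Cholesterol genes were followed in livers of newborn mice that lack glycerol kinase, the enzyme that phosphorylates glycerol, and in livers of their wild type littermates. The members are 36 genes of cholesterol synthesis, uptake control, transport and efflux, chosen by name. A probe set was taken where the platform annotation gives 1 of these genes as its only symbol, which gave 68 probe sets of 32 genes, out of 34945 probe sets of 18193 genes named in this way. Acat2, Soat1, Soat2 and Nr1h2 had no such probe set and were not analysed here. Each gene is represented by its brightest probe set, and all 32 of these passed the filter on dim probe sets.

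The tested livers came from 4 male glycerol kinase knockout (KO) mice and the others from 3 male wild type (WT) littermates, all C57BL/6J and taken on day of life 1, with 1 Affymetrix array per liver. At this age the KO pups are described as free of symptoms, and the comparison asks which expression differences are there before disease is overt. The labels do not say which cells or which part of the gene the deletion covers, and the targeted transcript was not analysed here, so the array data do not check the KO labels. Levels are given as linear intensities. Fold changes compare means of log2(intensity + 16), so those of dim genes are understated. Whole livers were used, so fewer cells of a type and less RNA per cell cannot be told apart.

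Liver cells make cholesterol from acetyl-CoA through the mevalonate pathway and a long series of sterol steps. When membranes of the endoplasmic reticulum run low in sterol, the escort protein SCAP carries the transcription factor SREBP2 to the Golgi, where it is cut free to switch on nearly every gene of the pathway. INSIG proteins hold SCAP back when sterol is plentiful. The LXR nuclear receptors respond in the other direction: oxidised sterols activate them, and they induce ABC transporters that export cholesterol, along with MYLIP, which lowers lipoprotein uptake.

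Promoter sequences of RefSeq (build GRCm38.p6) are shown for 3 genes on which the results below turn: Hmgcs1, which rose in KO liver, Cyp51, which varied most among KO livers within the synthesis list, and Abcg8, which shares its upstream region with Abcg5. Each line gives the 250 bases before a transcription start, 5′ to 3′ on the gene's strand, and capitals mark matches, on either strand, to TCACNCCAC (a loose form of the SREBP element), CCAAT (the NF-Y box) or GGGCGG (the Sp1 box). The positions are chr13:119690101-119690350 on the plus strand for Hmgcs1, chr5:4104698-4104947 on the minus strand for Cyp51 and chr17:84682871-84683120 on the plus strand for Abcg8, each just upstream of an annotated transcription start. Abcg8 has 2 RefSeq starts, and the one nearer Abcg5 is shown.
Hmgcs1: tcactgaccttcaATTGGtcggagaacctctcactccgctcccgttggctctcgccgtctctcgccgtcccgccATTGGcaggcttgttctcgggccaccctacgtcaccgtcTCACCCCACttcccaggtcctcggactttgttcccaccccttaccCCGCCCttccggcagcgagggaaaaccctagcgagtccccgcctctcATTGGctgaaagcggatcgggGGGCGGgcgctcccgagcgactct
Cyp51: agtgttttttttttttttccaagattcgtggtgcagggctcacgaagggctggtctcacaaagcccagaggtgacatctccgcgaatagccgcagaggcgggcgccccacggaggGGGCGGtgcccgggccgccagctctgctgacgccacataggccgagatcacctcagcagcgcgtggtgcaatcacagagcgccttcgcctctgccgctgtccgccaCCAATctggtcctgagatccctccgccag
Abcg8: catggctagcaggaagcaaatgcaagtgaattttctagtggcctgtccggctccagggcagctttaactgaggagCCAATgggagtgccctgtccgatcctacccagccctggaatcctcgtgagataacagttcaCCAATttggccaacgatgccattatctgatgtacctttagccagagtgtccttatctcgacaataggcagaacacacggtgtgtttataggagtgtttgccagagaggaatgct

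Promoters were listed for 29 of the 36 members. The letters TCACNCCAC were found in the promoter of Hmgcs1, from 137 to 129 bases before its start, in no other of these 29 genes, and in 1.05% of all 32851 promoters of this length. The strict form of that element, which contains the looser letters, was found in 0 of the 29 genes and in 0.0731% of all promoters. CCAAT was present in 17 of 18 SREBP2-driven genes with a promoter and in 3 of 5 LXR-driven genes, against 33.8% of all promoters. GGGCGG was present in 16 of those 18 and in 3 of those 5 genes, against 32.7%. The counts are of genes with a match in any of their listed promoters, whereas the percentages are of single promoters. Genes with several starts thus have more chances of a match. The LXR element, a direct repeat with a short spacer, was found in 0 of the 29 genes and in 0.0152% of all promoters. None of the matches in the 3 printed sequences overlap. A match is a stretch of letters in this window and not a measured binding site.

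Hmgcs1 and the SREBP2 escort Scap were higher in KO liver, and no other member passed the test. The synthesis list as a whole did not lean either way: 9 of its 18 measured genes were higher in KO and 9 lower. Among all 32 members 2 rose and 0 fell at limma's Benjamini-Hochberg adjusted p of 0.05, where 4.24% of all 22518 tested probe sets were called (2.35% higher and 1.89% lower). Higher calls made up 55.4% of all calls, and 73.6% after median scaling. A count of 2 in 32 lies near that background, although the units differ. Members are counted by the brightest probe set per gene, and the background is over all tested probe sets, here and below. KO and WT intensities did not overlap for 6 members, 4 with every KO liver above and 2 with every KO liver below, against 21.1% of all tested probe sets (9.4% above and 11.8% below), again close to the background. The log2 fold change was above 0 for 19 of 32 members and for 45.8% of all tested probe sets, and its median was 0.11 over the members and -0.03 over all tested probe sets. At an unadjusted limma p under 0.05 there were 8 members. The share of all tested probe sets at that threshold was not counted, so this number has no background beside it.

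**Figure D1:**
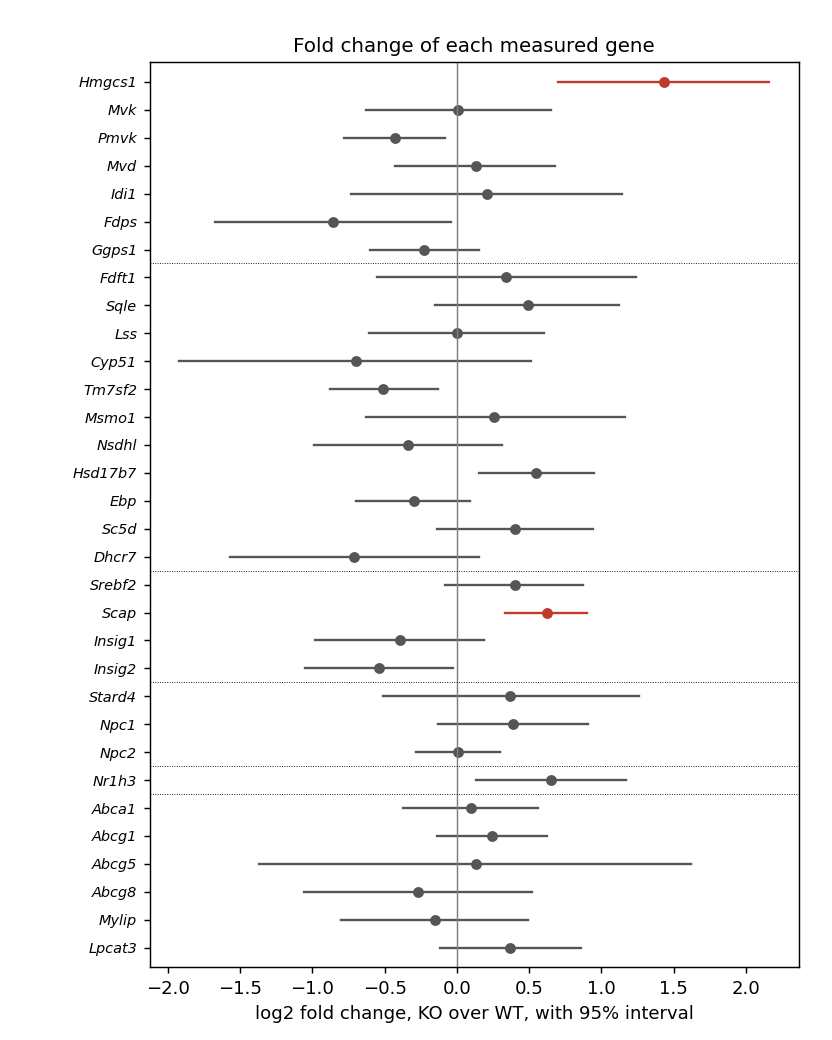
Log2 fold change of KO over WT (x axis) for each of the 32 measured genes (rows, grouped from the top as mevalonate steps, sterol steps, SREBP2 control, transport, LXR receptor and LXR-driven genes), as points with 95% intervals from limma over 4 KO and 3 WT livers. Hmgcs1 and Scap, in red, passed an adjusted p of 0.05, and the other members lie on both sides of 0.

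Hmgcs1 encodes the cytosolic synthase that makes HMG-CoA, the substrate of the mevalonate pathway. Its brightest probe set read 4046.4, 11632.6, 12092.3 and 8973.7 in KO livers 1 to 4, against 3369.9, 2594.4 and 3478.4 in WT livers 1 to 3. Every KO liver lay above every WT liver, KO 1 narrowly and the other KO livers by a wide margin. The means were 9186 ± 3692 in KO and 3148 ± 482.1 in WT (SD, n = 4 and 3), a log2 fold change of 1.43 ± 0.33 (SE, limma adjusted p = 0.0413). Of its 3 other probe sets that passed the filter, those at 1.32 and 1.07 on the log2 scale also passed (limma adjusted p = 0.0442 and 0.045). The third was at 1.14 (adjusted p = 0.0609), and in it KO 1, at 1255.6, lay below WT 1, at 1352.6. The probe set at 1.07 is of a type that can match transcripts of other genes, and such binding was not tested. The brightest probe set and those at 1.32 and 1.14 are not of that type. The call is a marginal one: the log2 fold change stayed between 1.26 and 1.79 with any 1 array left out, but the adjusted p was under 0.05 only without KO 1 (0.00264), and was 0.0853, 0.0662 and 0.0928 without KO 2, KO 3 and KO 4 and 0.103, 0.134 and 0.129 without WT 1, WT 2 and WT 3.

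Hmgcs1 stood above the rest of its pathway in KO liver. Taking each gene's log2 level relative to its own WT mean, Hmgcs1 lay above the mean of the 17 other measured synthesis genes by 1.07, 1.94, 1.45 and 1.67 in KO livers 1 to 4, against 0.03, -0.02 and -0.01 in WT livers 1 to 3. By this brightest probe set, the gene followed its pathway to within 0.04 on the log2 scale in the WT livers. In each KO liver, including KO 1 and KO 3 where the pathway stood lowest and highest, it was offset upward from the pathway. In KO 1 most of the offset came from the 17 other genes, which averaged -0.69, while Hmgcs1 itself was at 0.37. The other tested probe sets of Hmgcs1 read highest in WT 1 rather than WT 3, such as 2153.8, 1186.6 and 1612.9 in WT livers 1 to 3. Offsets were not computed from them, so the closeness in WT livers holds for the brightest probe set only. The 17 other genes alone averaged -0.1 ± 0.49 in KO and 0 ± 0.22 in WT (SD, n = 4 and 3). These offsets were set up after the values of Hmgcs1 were seen and carry no test.

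**Figure D2:**
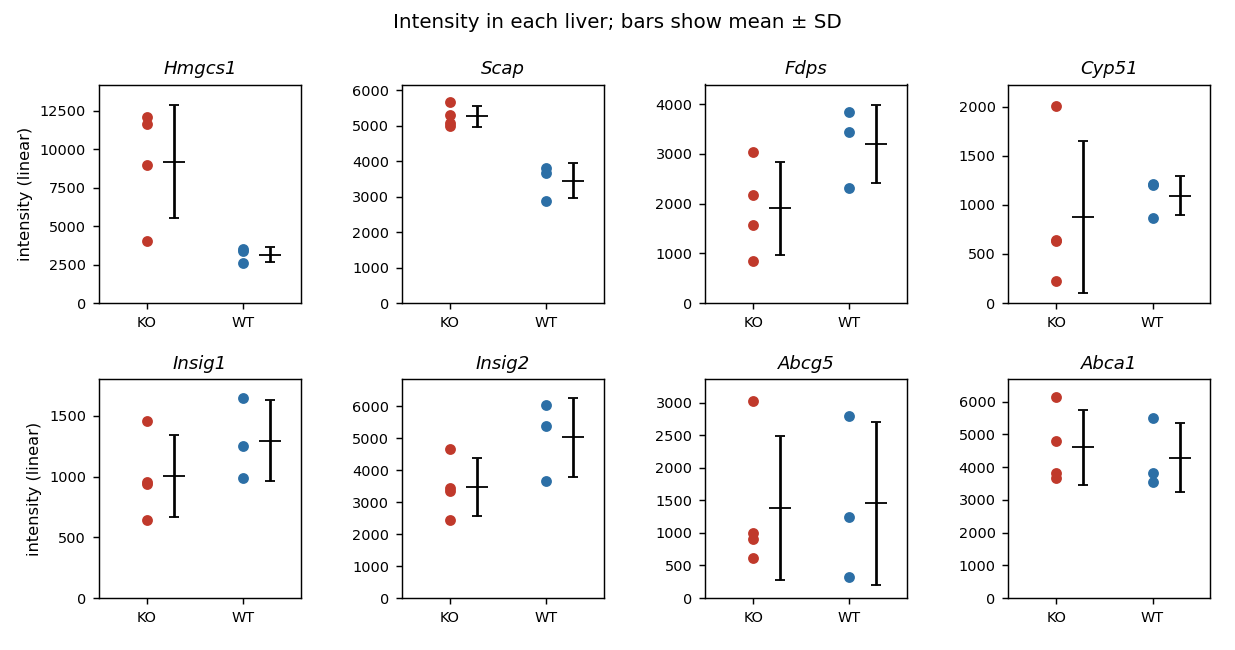
Intensity on a linear scale (y axis) of 8 members in each KO liver (red points) and WT liver (blue points), with the mean and SD beside the points (n = 4 and 3). Hmgcs1 and Scap separate the groups, whereas Fdps, Cyp51, Insig1, Insig2, Abcg5 and Abca1 overlap between them.

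After Hmgcs1 the early steps of the pathway varied without a called change. Fdps, the synthase of farnesyl diphosphate, read 844.7, 2177.4, 3048.8 and 1565.1 in KO livers 1 to 4, against 3448.3, 2320.8 and 3841.4 in WT livers, so KO 3 overlapped the WT range. Its log2 fold change was -0.86 ± 0.37 (limma adjusted p = 0.208, 95% interval -1.67 to -0.04), and -0.52 without KO 1 (adjusted p = 0.281). Pmvk, the second kinase acting on mevalonate, was lower in every KO liver, at 313.2 to 417.6 against 475.4 to 529.5 in WT, and its log2 fold change of -0.43 ± 0.16 did not pass (adjusted p = 0.149). Idi1, which isomerises isopentenyl diphosphate, ran from 904.1 in KO 1 to 4656.3 in KO 3, against 1464.1 to 2091.8 in WT livers. The kinase Mvk at 0.01, the decarboxylase Mvd at 0.13 and Ggps1, which makes the geranylgeranyl chain, at -0.23 on the log2 scale did not pass (adjusted p from 0.469 to 0.986).

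The sterol steps split in sign, with 5 genes higher and 6 lower in KO and 0 of 11 called. Squalene is made by Fdft1 and oxidised by Sqle, an enzyme that limits the later pathway. Sqle read 1184.4, 2050.6, 3243.5 and 1826.4 in KO livers 1 to 4, against 1696.1, 1172 and 1341.7 in WT livers, with KO 1 inside the WT range. Its log2 fold change was 0.49 ± 0.29 (limma adjusted p = 0.356), and that of Fdft1 was 0.34 ± 0.40 (0.672). Msmo1, Nsdhl and Hsd17b7 act together to strip methyl groups from the ring. By its brightest probe set, of a type that can match several transcripts, Hsd17b7 was higher in every KO liver, at 1698.1 to 2405.6 against 1032.6 to 1489.6 in WT, with a log2 fold change of 0.55 ± 0.18 that did not pass (adjusted p = 0.111). Its gene-specific probe sets were at 0.21 ± 0.20 and 0.33 ± 0.18 (adjusted p = 0.592 and 0.321), and in both KO 3 lay below every WT liver. Tm7sf2, a sterol reductase, was lower in every KO liver, at 1560.4 to 2341.5 against 2439.7 to 2916.5 in WT, with -0.51 ± 0.17 (adjusted p = 0.120).

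Cyp51, which demethylates lanosterol, varied more among KO livers than any other synthesis gene when each gene was read by its brightest probe set. It read 221.5, 635.8, 2005.2 and 645.2 in KO livers 1 to 4, a 9.05-fold range, against 1213.2, 868.2 and 1204.5 in WT livers, a 1.40-fold range. KO 3 was above all WT livers and the other KO livers below them. Dhcr7, which reduces the last precursor to cholesterol, ran from 608.3 in KO 1 to 2301.2 in KO 3, against 1553 to 2498.5 in WT livers. The log2 fold changes of -0.70 ± 0.55 for Cyp51 and -0.71 ± 0.39 for Dhcr7 did not pass (limma adjusted p = 0.493 and 0.319), and the interval for Cyp51 reached from -1.92 to 0.51. Without KO 1 Cyp51 was at -0.20 and Dhcr7 at -0.42 (adjusted p = 0.810 and 0.510), and without KO 3 they were at -1.23 and -1.05 (0.0923 and 0.082). A dimmer probe set of Cyp51 was at 0.16 ± 0.42 (adjusted p = 0.865). Its KO range was 5.16-fold, less than the 7.65-fold of a dimmer Idi1 probe set. By it KO 2 and KO 4, at 230.8 and 254.2, lay inside the WT range of 176 to 273.5. Sc5d, a sterol desaturase, was at 0.40 ± 0.24 by its brightest probe set (adjusted p = 0.375), while a dimmer one was at 1.00 ± 0.23 (adjusted p = 0.0442), at 214 to 403.5 in KO against 113.7 to 174 in WT. By their brightest probe sets the remaining genes Lss, Ebp, Msmo1 and Nsdhl lay between -0.34 and 0.26 on the log2 scale, and none passed. That of Lss is of a type that can match several transcripts, and its gene-specific one was at -0.57 ± 0.25 (adjusted p = 0.228).

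**Figure D3:**
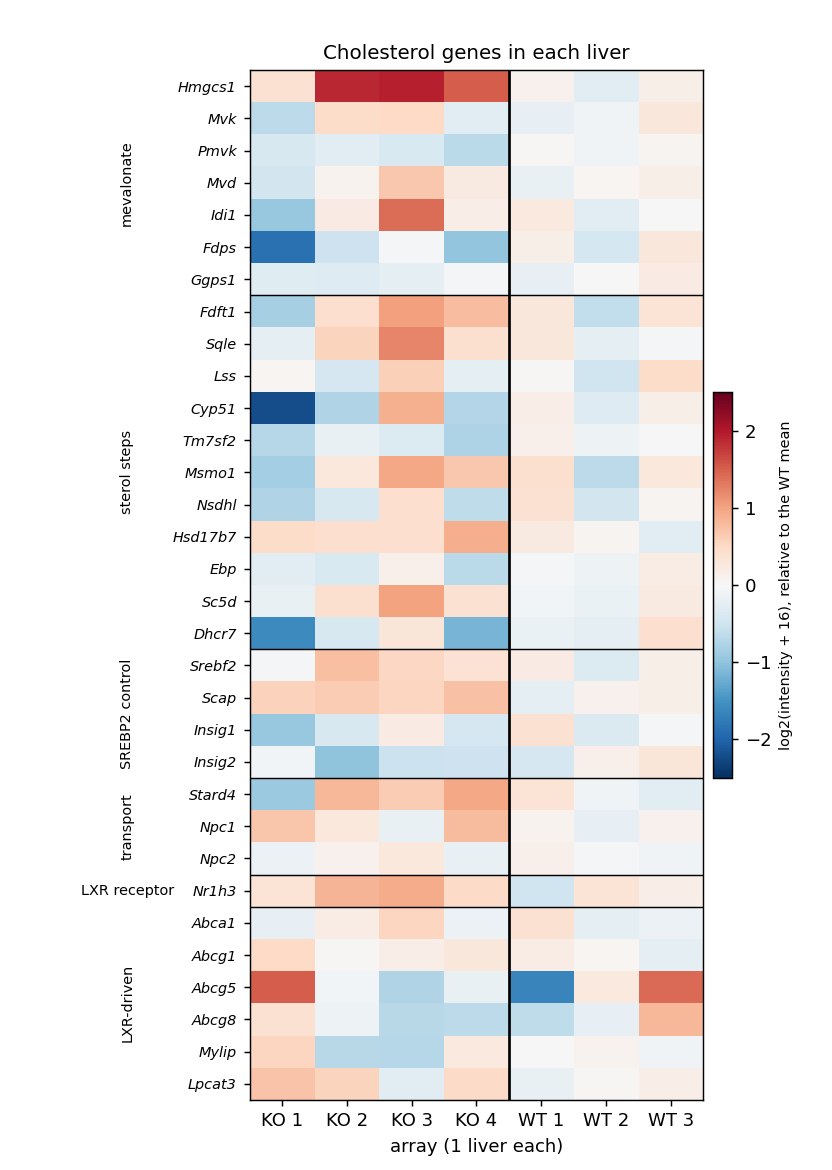
Log2(intensity + 16) of each measured gene (rows, by role) in each liver (columns, KO left of the line and WT right), relative to the gene's WT mean, red for higher and blue for lower. Most synthesis genes are blue in KO 1 and red in KO 3, and Abcg5 and Abcg8 show the reverse.

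Scap was the member with the smallest p. Its brightest probe set read 5091.8, 5310.9, 5008.8 and 5677.6 in KO livers 1 to 4, against 2885.9, 3672 and 3797.3 in WT livers. The KO livers lay close together and all above the WT livers. The means were 5272 ± 298.8 in KO and 3452 ± 494 in WT (SD, n = 4 and 3), a log2 fold change of 0.62 ± 0.13 (limma adjusted p = 0.0313). A second, dim probe set of Scap was at -0.13 ± 0.30 (adjusted p = 0.838). The call held without KO 1 (adjusted p = 0.0402) and without KO 3 (0.0337), but not without KO 2 or KO 4 (0.0627 and 0.0798) or without WT 1, WT 2 or WT 3 (0.0916, 0.0827 and 0.0922), and the log2 fold change stayed between 0.49 and 0.69.

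The other regulators did not pass. Srebf2, the gene of SREBP2 itself, read 684.8, 1189.4, 999.4 and 895.6 in KO livers 1 to 4, against 808.1, 543.6 and 773.3 in WT livers, with KO 1 inside the WT range. Its log2 fold change was 0.40 ± 0.21 (limma adjusted p = 0.312). Insig1, an SREBP2 target that feeds back on SCAP, read 646.7, 954.6, 1461.3 and 943.6 in KO livers, against 1648.8, 987.9 and 1248.9 in WT livers, a log2 fold change of -0.39 ± 0.26 (adjusted p = 0.416). Insig2, the second retention protein, read 4656.4, 2427.3, 3358.2 and 3425.4 in KO livers, against 3650.1, 5389.9 and 6026.2 in WT livers, a log2 fold change of -0.54 ± 0.23 (adjusted p = 0.204). KO 1, lowest of the KO livers for Insig1, was the highest of them for Insig2. The 2 other probe sets of Insig2 were at -0.90 ± 0.30 and -0.24 ± 0.26 (adjusted p = 0.118 and 0.650).

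Of the genes that move cholesterol inside the cell, 3 were measured and none passed the test. Stard4, a soluble cholesterol carrier induced by SREBP2, read 830.4, 2849.2, 2473.4 and 3141.3 in KO livers 1 to 4, against 2038.2, 1503.7 and 1329 in WT livers. KO 1 was below every WT liver and the other KO livers above every one. The log2 fold change of 0.37 ± 0.40 (limma adjusted p = 0.633) became 0.81 without KO 1 (adjusted p = 0.0423). Npc1 and Npc2, which pass cholesterol out of lysosomes, were at 0.39 ± 0.23 and 0.01 ± 0.13 (adjusted p = 0.360 and 0.977).

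The LXR-driven genes leaned neither way, with 4 higher, 2 lower and 0 of 6 called, a median log2 fold change of 0.11 against 0.01 for the 21 measured SREBP2-driven genes (the synthesis enzymes with Insig1, Stard4 and Srebf2). Nr1h3, the LXR alpha receptor, was higher in every KO liver, at 517.4, 743.6, 780.2 and 564.8 in KO livers 1 to 4 against 279.2, 517.1 and 451.9 in WT livers. KO 1 and WT 2 nearly touched, and the log2 fold change of 0.65 ± 0.23 did not pass (limma adjusted p = 0.145).

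Abcg5 and Abcg8 encode the partner subunits of the transporter that secretes sterols into bile. Abcg5 read 3024.7, 994.7, 616.7 and 912.3 in KO livers 1 to 4, against 320.5, 1247.3 and 2797.8 in WT livers. Abcg8 read 699.1, 490, 326.7 and 333.8 in KO livers, against 340.6, 465.1 and 962.5 in WT livers. Both genes were highest in KO 1 and lowest in KO 3 within the KO group, and highest in WT 3 and lowest in WT 1 within the WT group. Their RefSeq starts lie 110 bases apart on chromosome 17 in opposite directions, so that the region printed above for Abcg8 also holds the start of Abcg5. The WT range of Abcg5 was 8.73-fold, and its log2 fold change of 0.13 had a 95% interval from -1.37 to 1.62 (limma adjusted p = 0.939), so this design could not resolve even a large difference. Abcg8 was at -0.27 ± 0.36 (adjusted p = 0.705).

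Abca1, which loads cholesterol onto apolipoprotein A-I, read 3657.5, 4794.1, 6157 and 3808.3 in KO livers 1 to 4, against 5504.6, 3554.7 and 3820.5 in WT livers (log2 fold change 0.10 ± 0.21, limma adjusted p = 0.833). Abcg1, an exporter to lipoprotein particles, read 852.5, 612.2, 670.4 and 727.7 in KO livers, against 683.8, 620.4 and 506.8 in WT livers (0.24 ± 0.17, adjusted p = 0.451). Both overlapped between groups, and Abca1 was highest in KO 3, unlike the other LXR-driven genes, although its dimmer probe sets were highest in KO 2. Mylip read 3474.6, 1471.8, 1454.9 and 2802 in KO livers, against 2388.7, 2527.6 and 2231 in WT livers, with 2 KO livers above and 2 below the narrow WT range (-0.15 ± 0.29, adjusted p = 0.805). Lpcat3, an LXR target that builds polyunsaturated phospholipids, read 4339.5, 3862.5, 2171.9 and 3665.4 in KO livers, against 2298.2, 2669 and 2943.3 in WT livers. Its log2 fold change of 0.37 ± 0.22 did not pass (adjusted p = 0.358) but was 0.59 without KO 3 (adjusted p = 0.047).

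Set side by side in each liver, the SREBP2-driven and LXR-driven lists stood on opposite sides of the WT mean in KO 1 and KO 3. The SREBP2-driven mean, in log2 units relative to the WT mean, was -0.63, 0.11, 0.56 and -0.01 in KO livers 1 to 4, against 0.12, -0.25 and 0.13 in WT livers 1 to 3. The LXR-driven mean was 0.58, -0.02, -0.28 and 0 in KO livers, against -0.32, -0.01 and 0.32 in WT livers. From KO 1 to KO 3 the first list climbed and the second descended. KO 4 and KO 2 lay between them, and in the LXR-driven list they were nearly equal, at 0 and -0.02. The WT livers showed no opposite order of the lists. Abcg5, whose WT range was 8.73-fold, is part of the LXR-driven mean, which was not computed without it. The difference between the lists was -1.21, 0.13, 0.85 and -0.01 in KO livers and 0.43, -0.25 and -0.19 in WT livers, which averaged -0.06 ± 0.85 in KO and 0 ± 0.38 in WT (SD, n = 4 and 3). The group difference of -0.06 is far smaller than the spread between livers, and it was 0.32 without KO 1 and -0.36 without KO 3. These list means are a description with no test.

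**Figure D4:**
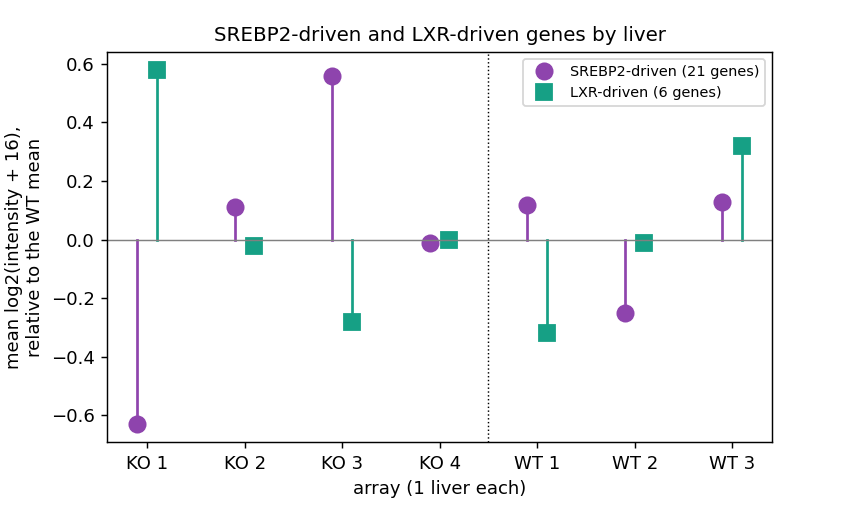
Mean log2(intensity + 16) of the 21 SREBP2-driven genes (circles) and the 6 LXR-driven genes (squares) in each liver (x axis, KO left of the dotted line), relative to the WT mean. The lists stand apart in opposite directions in KO 1 (-0.63 and 0.58) and KO 3 (0.56 and -0.28).

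Single livers recurred at the ends of the ranges. Within the KO group, KO 1 was the lowest of the 4 livers for 15 of 21 SREBP2-driven genes and KO 3 the highest for 15, where KO 1 was lowest for 22.9% and KO 3 highest for 23.6% of all tested probe sets. KO 1 was highest for 5 of the 6 LXR-driven genes, all but Abca1, and KO 3 was lowest for 4, where KO 1 was highest for 28.9% and KO 3 lowest for 36.6% of all tested probe sets. Among WT livers, WT 2 was lowest for 16 of the 21 SREBP2-driven genes, against 31.8% of all tested probe sets. The median SD of a SREBP2-driven gene was 0.53 over KO livers and 0.27 over WT livers on the log2 scale, against 0.257 and 0.184 over all tested probe sets. KO 3 also had the highest ratio of 3′ to 5′ signal in all 4 control transcripts, such as 11.1 for the transferrin receptor against 7.22 to 7.32 in the other KO livers and 7.91 to 8.24 in WT livers, and its part in these results was not tested. Without KO 3 the median log2 fold change of the SREBP2-driven genes was -0.19, and the 2 members called were Scap and Lpcat3.

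Genes outside the 36 members but of the same physiology were read from a list of 40, which leaves out some known SREBP2 targets and so does not cover the whole pathway. Of the 40 genes 35 were measured and 32 of those were bright enough to test. In it 7 rose and 1 fell, against 2.35% and 1.89% of all tested probe sets, and 24 of 35 were higher with a median log2 fold change of 0.15. The list was drawn up with earlier results of these data known. These counts therefore describe the listed genes and cannot test whether cholesterol genes change more often than others. The strongest was Lipa, the lysosomal acid lipase that frees cholesterol from the esters of incoming lipoproteins. It read 5436.6, 5610, 5240.3 and 7742.3 in KO livers 1 to 4, against 2065.4, 2309.1 and 2199.3 in WT livers, and no KO liver came near the WT range. The log2 fold change was 1.43 ± 0.15 (limma adjusted p = 0.0020), its 2 other probe sets were at 1.19 and 1.20 (adjusted p = 0.00351 and 0.00699), and it passed with any 1 array left out (highest adjusted p = 0.0212).

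Proteins of uptake and intracellular transfer were among the other rises. Stard5, a lipid carrier of the same family as Stard4, rose by 1.08 ± 0.21 on the log2 scale (2494 ± 629.9 in KO and 1155 ± 193.6 in WT, limma adjusted p = 0.0237). Lrp1, a receptor that clears remnant lipoproteins, rose by 0.93 ± 0.18 (3567 ± 575.1 in KO and 1876 ± 368 in WT, adjusted p = 0.0245). The fatty acid binding protein Fabp1, the sterol carrier gene Scp2 and Pex5, which imports proteins such as SCP2 into peroxisomes, rose by 0.81 ± 0.17, 0.66 ± 0.13 and 0.76 ± 0.17 (adjusted p = 0.034, 0.0296 and 0.0384). The other probe set of Fabp1, at 25580 in KO and 19840 in WT, was at 0.36 ± 0.11 and did not pass (adjusted p = 0.103). The 3 other tested probe sets of Scp2 were at 0.27, 0.33 and -0.42, and none passed (limma adjusted p = 0.240, 0.395 and 0.102). Nr1h4, the bile acid receptor, rose by 1.08 ± 0.23 (adjusted p = 0.0332). Lbr, a sterol reductase that is also a protein of the nuclear envelope, fell by 0.49 on the log2 scale, to 6664 ± 551.4 in KO against 9379 ± 704.1 in WT (adjusted p = 0.0388). All of these but Lipa lost their call without at least 4 of the 7 arrays in turn, and Lbr also under median scaling (adjusted p = 0.124).

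Nceh1, which hydrolyses cholesterol esters outside lysosomes, was higher in every KO liver but missed the threshold, at 0.78 ± 0.21 (limma adjusted p = 0.0614). Cyp27a1, which oxidises the side chain of cholesterol, was lower in every KO liver, at 2107.2 to 3494.3 against 3509.4 to 4370.3 in WT (-0.56 ± 0.18, adjusted p = 0.119). Vapa, an anchor of lipid transfer proteins, and Cyb5b, a cytochrome b5, were at -0.37 ± 0.14 and 0.70 ± 0.27 (limma adjusted p = 0.160 and 0.168). Another probe set of Vapa was lower in every KO liver, at 3668.9 to 5136.1 against 6346.8 to 7105.9 in WT (-0.61 ± 0.15, adjusted p = 0.056).

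**Figure D5:**
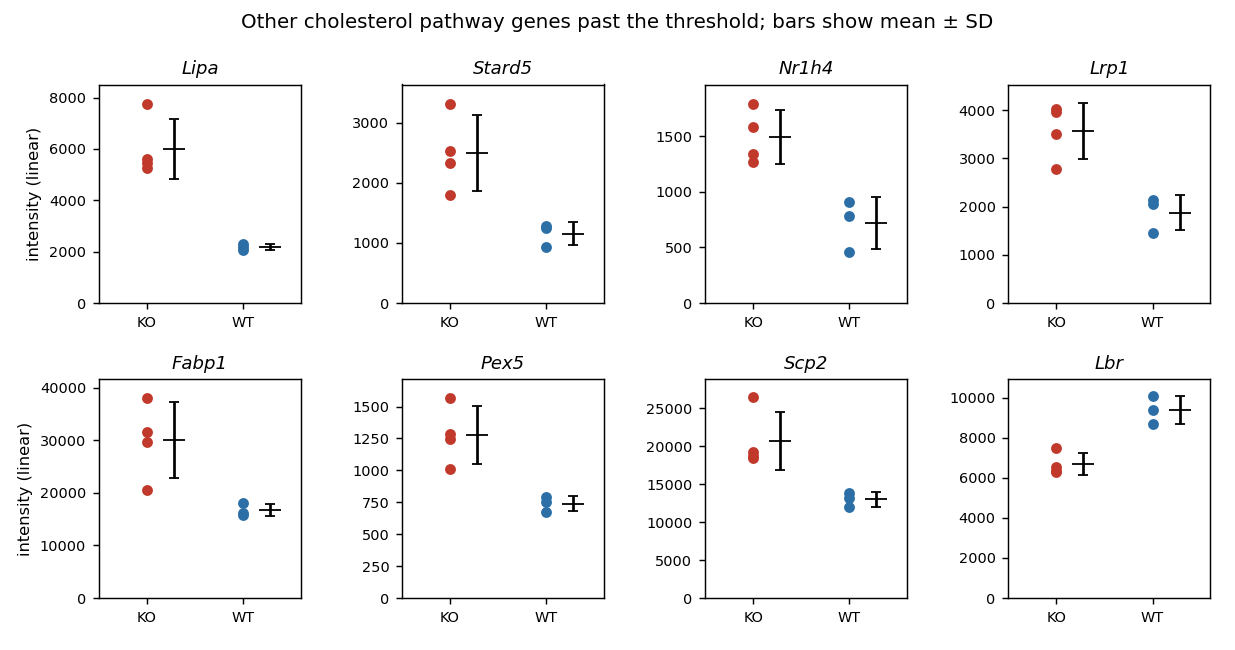
Intensity on a linear scale (y axis) of the 8 genes of the wider cholesterol list that passed an adjusted p of 0.05, in each KO liver (red points) and WT liver (blue points), with mean and SD (n = 4 and 3). Lipa, Stard5, Nr1h4, Lrp1, Fabp1, Pex5 and Scp2 are above and Lbr below the WT livers in every KO liver.

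Marker lists describe the cells in these samples. Hepatocyte markers were bright in all arrays, with a summed intensity over 9 genes of 269435 to 346230 in KO and 284673 to 321569 in WT. Markers of macrophages, which also express Abca1 and Abcg1, summed to 29127 to 37653 in KO and 29477 to 38223 in WT, with 0 of 10 called. The sum of 8 erythroid markers was lower in every KO liver, at 46934 to 51998 against 59439 to 66143 in WT, with 2 of 8 called lower, and its part in the fall of Lbr was not tested. Sums of neutrophil, endothelial, stellate, cholangiocyte and adrenal cortex markers overlapped between groups, with 0 called in each. Among adrenal cortex markers only Hsd3b1 was bright enough to test (1450 ± 603 in KO and 2790 ± 1150 in WT, limma adjusted p = 0.195). Sox9, a cholangiocyte marker, was too dim to test. Of 3 intestinal markers 2 stayed under an intensity of 50 on every array, and Fabp2, a fatty acid binding protein of the gut, was called higher in KO (954 ± 464 in KO and 224 ± 118 in WT, limma adjusted p = 0.031). The sum of the 3 was higher in every KO liver, at 515 to 1400 against 162 to 394 in WT, and its part in the rise of Fabp1, which the gut also expresses, was not tested.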

How the data were processed

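Liver RNA of 4 KO and 3 WT mice was measured on 1 Affymetrix array each, and RNA was extracted from each liver separately, per the labels' protocols. Titles give the group and the replicate number. The deposited table holds linear intensities for each probe set, made with GCOS per the submitters' processing notes. How probes were summarised and whether arrays were scaled to a target are not stated in the labels or headers, and such a scaling would hide a change of total RNA. Array medians ran from 92.5 to 108, and the number of arrays limits the precision.

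Intensities were taken as log2(value + 16). Array medians on that scale spanned 0.193, under the limit of 0.2 set for using them without further scaling. Of 45101 probe sets, 64 controls were dropped and the 22518 with a mean above the median were tested with limma 3.58.1 in R 4.3.3 (lmFit, eBayes with trend, no covariate), with Benjamini-Hochberg adjustment over all of them and a threshold of 0.05. The steps were tested on simulated data; the first criterion for recovering large changes was narrowly missed and was then loosened. Arrays correlated at 0.93 to 0.985, and 0 pairs were identical. Plots used matplotlib 3.10.9.

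The members, lists, motifs and tests were chosen with earlier results of these data known. Genes were named from the platform annotation, by its single symbol. All members may be named, with values array by array for called members, LXR-driven genes and Srebf2, Insig1 and Insig2; of other pathway genes, those called and at most 4 more of smallest p. Fdps, Sqle, Cyp51, Nr1h3 and Stard4 were given in full after their values were seen, as were probe sets other than the brightest. Alternatives covered the offset, scaling, filter, variance model, array weights, each array left out, the replicate block, the probe set per gene and the threshold.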

Additional observations from a re-analysis of the deposited data

Results flagged for a closer look

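Hsd17b7, an enzyme of the sterol demethylation steps, had 1 KO liver far from the others by its brightest probe set, which can match several transcripts. KO 4 read 2405.6 and the other KO livers 1698.1 to 1742.3, a gap of 0.926 of the group's whole range on the log2 scale, above the 95% critical value of Dixon's test. By its gene-specific probe sets KO 4 was the highest KO liver too, at 1388.6 against 749.5 to 1096.7 and at 809.9 against 522.3 to 752.4 in the other KO livers, but not far apart from them. In all, 36 sets of KO values were examined, 32 members and 4 list means, and chance flags about 1 in 20. WT groups of 3 were not examined.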

How the results depend on the processing

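The number of tested probe sets called, 955, was 473 without the filter, 584 with eBayes without trend, 2413 with array weights, 2032 at an adjusted p under 0.1 and 352 with the replicate block, and 127 (without WT 3) to 1006 (without KO 1) with 1 array left out. The replicate block also lacked KO 4, which has no WT liver of the same number. Without KO 4 and with no block, 375 were called. Of the calls, 55.4% were higher in KO as deposited 73.6% after median scaling, 48.2% with array weights, 49.2% at an adjusted p under 0.1 and 82.7% without WT 3. The 2 members called were 0 without the filter, with eBayes without trend, when a gene's probe sets were averaged and with the replicate block, 5 with array weights (3 higher, 2 lower), and 0 to 3 with 1 array left out. Where limma called 0 members with an array left out, that array was KO 2, KO 4 or any WT array. The 8 other pathway genes were 3 without the filter and with eBayes without trend, 1 with the replicate block, and 1 to 7 with 1 array left out. List medians and the difference between lists moved by less than the SD over KO livers under every alternative run. With 1 array left out the SREBP2-driven median ran from -0.19 to 0.23 and the difference between lists from -0.36 to 0.32, moves about as large as the SD over WT livers (0.22 and 0.38).

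Signs turned for members near 0, none of them called. With 1 array left out the log2 fold change ran from -0.19 to 0.59 for Idi1, -0.25 to 0.23 for Lss, -0.06 to 0.63 for Msmo1, -0.05 to 0.32 for Mvd, -0.15 to 0.23 for Mvk, -0.05 to 0.29 for Abca1, -0.70 to 0.83 for Abcg5, -0.59 to 0.14 for Abcg8, -0.39 to 0.03 for Mylip and -0.07 to 0.07 for Npc2. Lss was at 0.07 under median scaling and 0.08 with the replicate block, Mvd at -0.02 by a probe set not of a shared type, and Mvk, Abcg5 and Npc2 at -0.15, -0.44 and -0.01 with array weights. Npc2 was also at -0.01 after quantile normalization and -0.11 as the mean of its probe sets. The cause was not tested.

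Equal replicate numbers showed no sign of pairing the arrays: deviations from the group means correlated at 0.0866, -0.0562 and 0.0553 for numbers 1 to 3. Such values cannot show whether livers shared a litter, and the labels do not say which did. A block on these numbers used replicates 1 to 3 only, so KO 4 was left out as well. With that block Hmgcs1 was at 1.40 (limma adjusted p = 0.0767) and Scap at 0.58 (0.107). Without KO 4 and with no block, they were at 1.40 (0.0928) and 0.58 (0.0798).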
